A study of Homo sapiens with 6 samples.

Results

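The genes described here are 8 genes of the intestinal epithelium: GPA33, LGALS4, TSPAN8, CEACAM1, CEACAM5, CEACAM6, VIL1 and HKDC1. They were taken by symbol from 22496 symbols measured in LoVo, an established human colon adenocarcinoma cell line, and all 8 were listed in all 6 libraries. Poly-A RNA was sequenced from 3 libraries with the genotype label non-target, the control, and 3 with the label SHARPIN knockout. The study asks which transcripts change in these cells when SHARPIN, part of a ligase that builds linear ubiquitin chains, is lost. Every library is LoVo, and the labels name no further treatment or time. They do not say whether the knockout cells are 1 clone or a pool, or whether each replicate was its own culture. The p-values below therefore measure only spread among libraries, and that spread may be technical. The genes were chosen because they were lower in the knockout libraries. Their difference between the groups is therefore a description with no test, while other genes were tested.

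Colonocytes and enterocytes carry a brush border, a dense array of microvilli on the surface that faces the gut lumen. Each microvillus holds a bundle of actin filaments crosslinked by proteins such as villin and is coated by glycoproteins, which lectins of the galectin family can bind and cluster. Several proteins of this surface are used in pathology and as drug targets in colorectal cancer, among them carcinoembryonic antigen, the product of CEACAM5. SHARPIN is known for its part in signalling from tumour necrosis factor receptors to NF-kB, and is not a brush-border protein.

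Of the 8 genes, 5 encode proteins held in the cell membrane. GPA33 encodes the A33 antigen, an immunoglobulin-domain protein of the intestinal epithelium. TSPAN8 encodes a tetraspanin, a membrane protein that organises others into microdomains. CEACAM1, CEACAM5 and CEACAM6 encode immunoglobulin-domain adhesion proteins: CEACAM1 crosses the membrane and carries an intracellular signalling tail, whereas CEACAM5 and CEACAM6 are held by a lipid anchor. LGALS4 encodes galectin-4, a lectin that is secreted and binds surface glycans. VIL1 encodes villin, which bundles and severs actin in microvilli. HKDC1 encodes a hexokinase-like protein of glucose metabolism, so the group is not purely one of surface or brush-border proteins.

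The genes lie on 5 chromosomes. In GRCh37 coordinates, GPA33 spans 167022073 to 167135716 on chromosome 1, VIL1 spans 219283844 to 219318018 on chromosome 2 and HKDC1 spans 70980088 to 71027308 on chromosome 10. TSPAN8 spans 71518865 to 71835678 on chromosome 12. The other 4 are on chromosome 19: LGALS4 at 39292311 to 39303585, CEACAM5 at 42212504 to 42234353, CEACAM6 at 42254885 to 42276116 and CEACAM1 at 43011456 to 43065386. CEACAM5 and CEACAM6 are adjacent genes on the plus strand, 20532 bases apart, and CEACAM1 is on the minus strand.

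Upstream sequences are shown for the CEACAM genes, because they are related genes with unequal differences, and for GPA33, because it has a tandem repeat. RefSeq (GRCh38.p14) gave a sequence before the start of 7 of the 8 genes, and 8 in all, since TSPAN8 has 2 starts. Each is the 250 bases before the start, written 5′ to 3′ along the gene. The positions are chr19:41708376-41708625 on the plus strand for CEACAM5, chr19:41755280-41755529 on the plus strand for CEACAM6, chr19:42528482-42528731 on the minus strand for CEACAM1 and chr1:167090378-167090627 on the minus strand for GPA33. Capitals mark the palindromic E-box CACGTG in CEACAM5 and CEACAM6, the bases aligned with it in CEACAM1, and both copies of the repeat in GPA33.
CEACAM5: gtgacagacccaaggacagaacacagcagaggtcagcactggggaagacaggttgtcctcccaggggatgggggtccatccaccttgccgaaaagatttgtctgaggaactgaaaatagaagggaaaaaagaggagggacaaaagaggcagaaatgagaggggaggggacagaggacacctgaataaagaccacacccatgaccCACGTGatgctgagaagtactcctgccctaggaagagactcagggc
CEACAM6: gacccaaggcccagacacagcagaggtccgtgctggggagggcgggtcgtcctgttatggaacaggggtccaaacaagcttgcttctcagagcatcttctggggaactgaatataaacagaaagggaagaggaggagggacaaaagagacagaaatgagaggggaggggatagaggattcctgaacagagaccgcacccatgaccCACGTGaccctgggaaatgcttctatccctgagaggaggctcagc
CEACAM1: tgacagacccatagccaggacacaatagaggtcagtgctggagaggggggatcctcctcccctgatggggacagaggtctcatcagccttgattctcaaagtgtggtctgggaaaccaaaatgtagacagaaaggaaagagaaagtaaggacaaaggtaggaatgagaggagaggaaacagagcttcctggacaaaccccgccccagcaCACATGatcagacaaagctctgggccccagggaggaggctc
GPA33: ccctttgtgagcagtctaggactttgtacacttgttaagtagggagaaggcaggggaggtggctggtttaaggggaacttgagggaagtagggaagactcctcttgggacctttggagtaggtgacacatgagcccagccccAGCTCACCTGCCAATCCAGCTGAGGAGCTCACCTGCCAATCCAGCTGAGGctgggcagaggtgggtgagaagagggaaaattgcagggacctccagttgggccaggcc

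The CEACAM upstream sequences resembled each other more than those of unrelated genes did. In global alignment CEACAM5 and CEACAM6 were 73.6% identical, CEACAM6 and CEACAM1 67.6% and CEACAM5 and CEACAM1 64.4%, against 41% to 49.6% for the 24 other pairs of different genes. The E-box begins 46 bases before the start in CEACAM5 and 45 bases before it in CEACAM6. The aligned bases of CEACAM1 differ by G4A, with positions counted from 1 at the first base of the box in CEACAM5. CACGTG was found, on either strand, in 6.34% of 35116 upstream sequences of the same length. In GPA33 the 25-base repeat stands in 2 directly adjoining copies, and 0.991% of all upstream sequences held an exact direct repeat of that length. A repeat of this kind is not particular to GPA33. The sequence before the TSPAN8 start farther downstream, not shown, held 2 exact copies of 27 bases that do not adjoin. An exact direct repeat of 27 bases occurred in 0.886% of all upstream sequences.

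Other short motifs were shared by few of the 8 upstream sequences (both strands searched). TTTATG, the core bound by CDX factors, occurred before both TSPAN8 starts, which overlap each other and share that site, and in 9.64% of all sequences. GTTAAT, part of HNF1 sites, occurred 3 times before the TSPAN8 start that lies farther downstream, and in 6.23% of all sequences. CAAAGT, a part of HNF4 sites, occurred in GPA33 and CEACAM1 (10.3% of all), TATAAA in CEACAM6 (10.7%) and GGGCGG in CEACAM6, CEACAM1 and the other TSPAN8 start (42.6%). No motif searched was common to all 8 sequences. These are matches of letters and do not show binding.

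Correlations of log2(FPKM + 1) across 13092 tested genes ran from 0.946 to 0.997 within a group and from 0.912 to 0.940 between groups. FPKM are fragment counts scaled by transcript length and by the mapped total of the library, and they summed to between 416852 and 431264 in 5 libraries and to 522919 in knockout replicate 3. Each library held an estimated 21100000 to 22500000 fragments, read from the step size of its low values. Here and below, 3 values in a row are replicates 1, 2 and 3 in that order. SHARPIN itself had 11.9, 13.9 and 12.9 FPKM in non-target and 7.55, 11.9 and 18.0 FPKM in knockout. The groups overlapped, and a small insertion or deletion need not lower a transcript, so this does not check the labels. Of 7 colon epithelial markers, EPCAM, CDH1, KRT8, KRT18, CDX1, CDX2 and HNF4A, all were above 0 in every library, and CDX1 and HNF4A fell (limma, adjusted p = 0.000642 and 7.75e-05). Nearly all of the leukocyte sum, 19.46 to 35.21 FPKM over 11 markers, was CD68, a lysosomal protein that many cell types hold, and CD3E, CD2, MS4A1 and TYROBP were at 0 in every library. The 7 endothelial markers summed to 0.646 to 0.679 FPKM in non-target and 0.087 to 0.123 in knockout. The 9 fibroblast markers summed to 20.2 FPKM in non-target replicate 1, 7.99 and 7.78 in the other non-target libraries, and 0.234 to 0.812 in knockout. LUM, lumican, was the most abundant of them outside non-target replicate 1 and fell (limma, adjusted p = 5.83e-05). COL1A1, a collagen gene, stood at 6.60 FPKM in non-target replicate 1 and at most 0.290 elsewhere. The part of these differences in the results below was not tested.

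All 8 genes were lower in every knockout library than in any non-target library. Mean levels in the knockout libraries were between 2.15% and 28.1% of the non-target means. Groups did not overlap, and were lower in knockout, in 15.7% of all tested genes, and 5.93% of tested genes fell past the threshold (limma, adjusted p below 0.05). The 8 genes were chosen on this contrast, so neither share says anything about them. The median difference of the 8 in mean log2(FPKM + 1) was -2.52, against 0.02 over all tested genes. It was -2.56 without non-target replicate 1 and ranged from -2.71 to -2.41 when each of the 6 libraries was left out in turn. In bulk RNA, fewer cells that express a gene and less RNA per cell cannot be told apart.

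**Figure D1:**
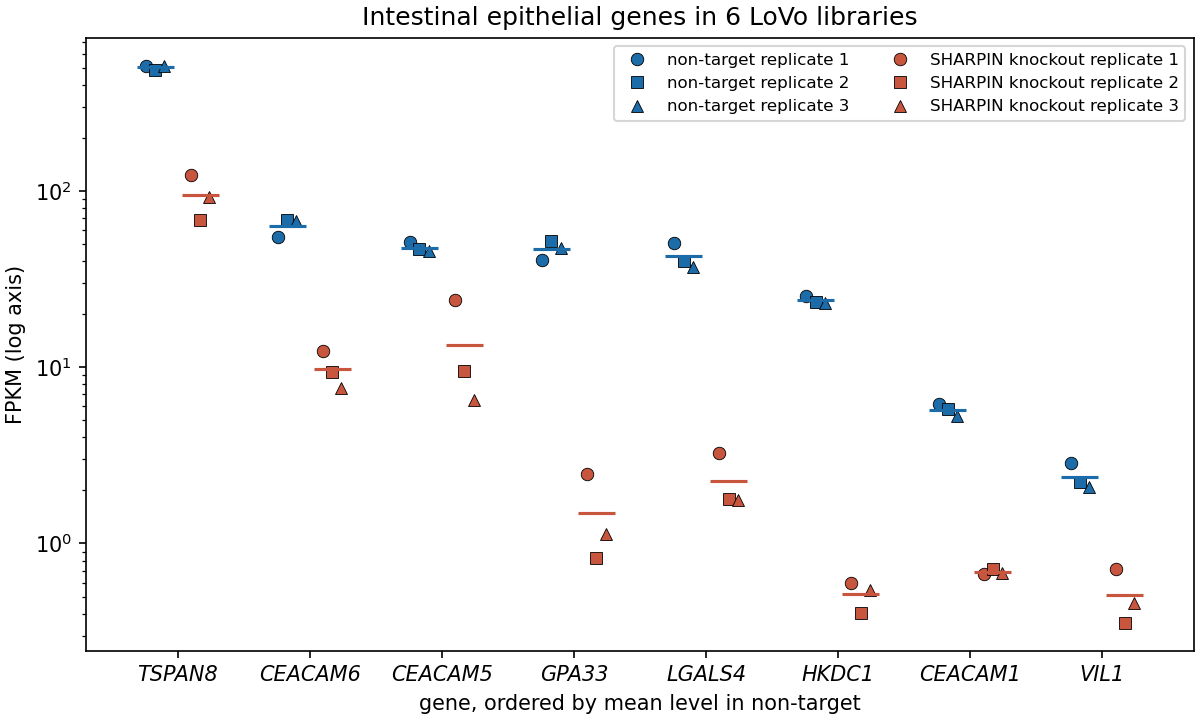
FPKM on a log axis for the 8 genes, ordered by their mean in non-target. Each point is 1 library, with marker shape for the replicate number, and each bar is the mean of 3 libraries. Every knockout point lies below every non-target point of the same gene, and the gap is narrowest in CEACAM5, where the lowest non-target value is 1.89 times the highest knockout value.

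GPA33, the A33 antigen, stood at 40.6, 52.1 and 47.3 FPKM in non-target. In knockout it stood at 2.48, 0.824 and 1.14 FPKM. The means were 46.7 ± 5.77 and 1.48 ± 0.881 FPKM (SD, n = 3 each), a 31.5-fold lower mean, and the lowest non-target library held 16.4 times the highest knockout library. Among 13092 tested genes, GPA33 went from rank 1129 by non-target mean to rank 11934 by knockout mean. A group of proteins with the same domain layout, the CTX family, was fixed as a list for comparison and is described further on.

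TSPAN8 was the most abundant of the 8 in every library. It stood at 514, 488 and 510 FPKM in non-target and at 123, 68.6 and 92.5 FPKM in knockout. Its mean was 5.32-fold lower in knockout, yet at 94.7 ± 27.4 FPKM (SD, n = 3) it still ranked 582 of 13092 tested genes, above 95.6% of them. TSPAN8 in knockout was thus more abundant per transcript length than any of the other 7 genes in non-target.

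CEACAM5, carcinoembryonic antigen, stood at 51.0, 46.6 and 45.3 FPKM in non-target and at 24.0, 9.56 and 6.53 FPKM in knockout. CEACAM6 stood at 54.8, 68.0 and 67.2 FPKM in non-target and at 12.3, 9.33 and 7.59 FPKM in knockout. CEACAM1, the member with a signalling tail, stood at 6.17, 5.81 and 5.27 FPKM in non-target and at 0.673, 0.717 and 0.683 FPKM in knockout. The means were 3.56-fold lower for CEACAM5, 6.5-fold lower for CEACAM6 and 8.31-fold lower for CEACAM1. CEACAM5 had the widest relative spread of the 3 in knockout, 13.4 ± 9.36 FPKM (SD, n = 3), and CEACAM1 the narrowest, 0.691 ± 0.0231 FPKM.

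The balance between the CEACAM genes varied among the libraries. The ratio of CEACAM5 to CEACAM6, both per transcript length, was 0.931, 0.686 and 0.674 in non-target. In knockout it was 1.95, 1.02 and 0.86. The groups overlapped, since knockout replicate 3 lay below non-target replicate 1, while within each replicate number the knockout library was the higher. Summed FPKM of the 3 genes ran from 112 to 120.4 in non-target and from 14.8 to 37 in knockout. CEACAM1 made up 4.47% to 5.51% of that sum in non-target and 1.82% to 4.62% in knockout, which overlap.

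LGALS4, galectin-4, stood at 50.3, 39.9 and 37.1 FPKM in non-target and at 3.25, 1.79 and 1.75 FPKM in knockout. Its mean was 18.8-fold lower in knockout, and the lowest non-target library held 11.4 times the highest knockout library. In the non-target libraries LGALS4, GPA33 and CEACAM5 were of like abundance, and their ranges overlapped. In knockout they parted: CEACAM5 was above both in every library, and the ranges of LGALS4 and GPA33 still overlapped.

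VIL1, villin, was the least abundant of the 8 in non-target, at 2.84, 2.24 and 2.098 FPKM. In knockout it stood at 0.718, 0.354 and 0.458 FPKM, a 4.69-fold lower mean. Low levels weigh on log2(FPKM + 1), where the difference was -1.17 ± 0.16 (SE), against -2.06 with a pseudocount of 0.1. At the estimated depth the knockout values correspond to 49.2 to 103.7 fragments if the longest annotated transcript was counted, or 4.0 to 8.5 if the shortest was. The transcript length behind the FPKM is not stated in the labels. Of the 6891 exonic bases annotated to VIL1, 3045 are shared with USP37, a ubiquitin protease gene on the opposite strand. USP37 stood at 1.98 to 3.47 FPKM over the 6 libraries and did not pass the test (log2 difference -0.10 ± 0.20, SE; limma, adjusted p = 0.807). The libraries mark strand, but whether the counting used it is not given, so fragments of both genes cannot be told apart in the shared bases.

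HKDC1, the hexokinase-like gene, had the largest ratio of means among the 8, at 46.5-fold. It stood at 25.2, 23.4 and 23.3 FPKM in non-target and at 0.599, 0.402 and 0.544 FPKM in knockout. Its spread was small in both groups, 23.9 ± 1.08 and 0.515 ± 0.102 FPKM (SD, n = 3), and the lowest non-target library held 38.9 times the highest knockout library. HKDC1 lies 2432 bases from HK1, which encodes the widespread hexokinase I. HK1 stood at 14.7, 9.42 and 9.42 FPKM in non-target and at 30.4, 17.3 and 17.3 FPKM in knockout. The groups did not overlap in HK1, which was higher in knockout, as were 16.5% of all tested genes without overlap. HK1 did not pass the test (log2 difference 0.88 ± 0.26, SE; limma, adjusted p = 0.0567), although it passed without non-target replicate 1 (0.0491). It also passed with a replicate block (adjusted p = 6.95e-06). That fit leaves 2 residual degrees of freedom, so its p-values rest mostly on a spread shared across genes and not on that of HK1. HKDC1 made up 50.2% to 55.1% of the summed FPKM of HKDC1, HK1 and HK2 in non-target and 1.32% to 2.02% in knockout.

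The order of the 8 by mean level differed between the groups. In non-target it ran TSPAN8, CEACAM6, CEACAM5, GPA33, LGALS4, HKDC1, CEACAM1 and VIL1. TSPAN8 and CEACAM6 each stood apart from the next gene, and so did HKDC1, CEACAM1 and VIL1, whereas CEACAM5, GPA33 and LGALS4 overlapped. In knockout it ran TSPAN8, CEACAM5, CEACAM6, LGALS4, GPA33, CEACAM1, HKDC1 and VIL1. There CEACAM5 and CEACAM6 overlapped, as did LGALS4 and GPA33, and HKDC1 and VIL1, while CEACAM1 lay above every HKDC1 value. VIL1 overlapped CEACAM1 as well.

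Within the knockout group, replicate 1 held more of these transcripts than the other 2 libraries. It was the highest of the 3 knockout libraries for 7 of the 8 genes, whereas it was the highest for 31.2% of all tested genes. Its level divided by the mean of replicates 2 and 3 was 2.99 for CEACAM5, 2.53 for GPA33, 1.83 for LGALS4, 1.77 for VIL1, 1.53 for TSPAN8, 1.45 for CEACAM6 and 1.27 for HKDC1. For CEACAM1 it was 0.961, and the median over all tested genes was 0.93. The order of libraries within a group was not used to choose the genes, but it rests on 1 library and carries no test. Without knockout replicate 1 the difference of CEACAM5 was -2.45 in log2(FPKM + 1), against -1.95 with it. In non-target, replicate 1 was the highest for 6 of the 8 genes, against 51.9% of all tested genes, and its ratio to the other 2 ran from 0.811 to 1.31.

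**Figure D2:**
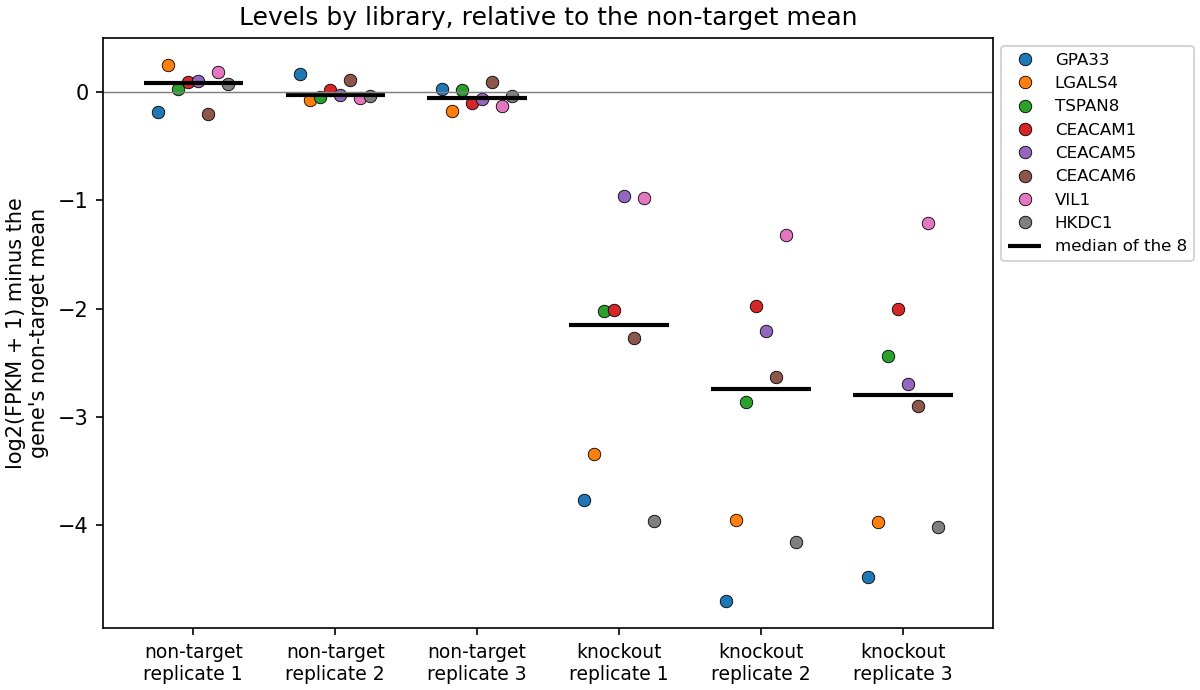
log2(FPKM + 1) of each gene in each library minus that gene's mean over the 3 non-target libraries; colours mark genes and black bars the median of the 8. The medians stand at 0.08, -0.03 and -0.05 in non-target and at -2.15, -2.75 and -2.80 in knockout replicates 1, 2 and 3, so the knockout libraries lie well below, with replicate 1 the highest of them.

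Genes that build the brush border moved in both directions, more of them down. Of 25 genes listed for brush-border structure other than VIL1, 19 were abundant enough to test; 7 fell, 2 rose and 10 did not pass (limma, adjusted p below 0.05), against 5.93% of all tested genes that fell and 6.26% that rose. Their median log2 difference was -0.52, against 0.02 over all tested genes. MYO1A, the myosin that ties the actin bundle to the microvillus membrane, fell by 2.57 ± 0.19 on the log2 scale (SE; adjusted p = 6e-05). It stood at 11.4, 8.497 and 8.184 FPKM in non-target and at 0.968, 0.566 and 0.681 FPKM in knockout. USH1C, a scaffold of the links between microvillus tips, went from 14.2 ± 2.59 to 2.59 ± 1.30 FPKM (SD, n = 3; adjusted p = 0.00065). BAIAP2L2, a membrane-bending protein, went from 10.6 ± 3.46 to 1.67 ± 0.146 FPKM (adjusted p = 0.000299). PLS1, fimbrin of the intestine and an actin bundler like villin, went from 22.1 ± 4.97 to 7.05 ± 2.63 FPKM (adjusted p = 0.00340).

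The others that fell were EPS8, EPS8L3 and MYO1E, and those that rose were EPS8L2 and EZR, all named here because the counts are small. EPS8, an actin-capping protein at microvillus tips, went from 91.8 ± 9.94 to 32.1 ± 8.97 FPKM, and its relative EPS8L2 from 10.3 ± 1.40 to 26.5 ± 3.10 FPKM (SD, n = 3). EZR encodes ezrin, which links actin to the membrane; it stood at 184.8, 159.6 and 170.9 FPKM in non-target and at 356.9, 239.2 and 255 FPKM in knockout (adjusted p = 0.0438). With scaling to TPM, which gives each library the same sum, the counts were 9 that fell and 1 that rose, and with median-ratio scaling 7 and 1. With a replicate block they were 10 and 2. Leaving out any single library left 6 to 8 that fell and 1 that rose, and with no filter on low genes 8 fell and 1 rose. Fits with 1 rise no longer held both EZR and EPS8L2. Of the genes of this list that passed, EZR lay nearest the threshold. Knockout replicate 1 was the highest knockout library for 14 of these 19 genes, against 31.2% of all tested genes. It was so for most of the 8, but also for 14 of 21 tested tetraspanins other than TSPAN8, of which 3 fell and 3 rose.

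The enzymes and transporters of a mature brush border were mostly below the level tested. Of 20 listed, 18 appeared in at least 1 library and 6 were tested. Of the 6, 3 fell, 0 rose and 3 did not pass, with a median log2 difference of -0.59. Over all tested genes 5.93% fell and 6.26% rose, and the median was 0.02. CFTR, the chloride channel of crypt cells, went from 16.7 ± 4.21 to 1.27 ± 0.501 FPKM (SD, n = 3; limma, adjusted p = 7.67e-05). DPP4, a surface peptidase, went from 28.9 ± 3.95 to 9.79 ± 1.52 FPKM (adjusted p = 0.000684). Of 15 products of mature colonocytes, 4 were tested; 2 fell, 1 rose and 1 did not pass. PHGR1 went from 6.48 ± 0.700 to 1.51 ± 0.343 FPKM (adjusted p = 0.000486) and CA2, carbonic anhydrase, from 8.78 ± 0.925 to 5.0 ± 0.616 FPKM (adjusted p = 0.0251). KRT20, a keratin of differentiated intestinal cells, rose (3.19 ± 3.30 to 17.1 ± 9.71 FPKM, adjusted p = 0.0168, and 0.0651 with no filter on low genes). Without replicate 2 or replicate 3 of non-target, or replicate 2 of knockout, KRT20 and CA2 did not pass (adjusted p up to 0.147 and 0.189), and CA2 also not without knockout replicate 3 unless the genes tested with all libraries were kept. CA1, AQP8 and SLC26A3, products of the colonocyte surface layer, were at most 0.072 FPKM in every library of either group. Not all of the list was so low. CA4, the tested gene that did not pass, stood at 0.798 to 1.38 FPKM over the 6 libraries. GUCA2A, too low to test, stood at 0.766 to 2.07 FPKM in non-target and 0.155 to 0.489 FPKM in knockout.

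Other surface antigens of intestinal epithelium gave 4 that fell, 0 that rose and 3 that did not pass, of 7 tested among 15 listed. Their median log2 difference was -1.42, against 0.02 over all tested genes, of which 5.93% fell and 6.26% rose. CDH17, the intestinal cadherin, stood at 68.9, 53.9 and 49.0 FPKM in non-target and at 11.1, 3.25 and 2.95 FPKM in knockout (adjusted p = 0.000524). FXYD3, a regulator of the sodium pump, went from 38.3 ± 2.01 to 8.91 ± 2.94 FPKM (SD, n = 3; adjusted p = 0.000316). MUC13, a membrane mucin, went from 36.5 ± 2.28 to 10.1 ± 2.07 FPKM (adjusted p = 0.000224), and PROM1, a protein of membrane protrusions, from 4.16 ± 0.359 to 0.924 ± 0.134 FPKM (adjusted p = 0.000429). EPCAM, an adhesion protein of epithelia in general, stood at 194.8 ± 2.74 and 164.8 ± 32.4 FPKM and did not pass (adjusted p = 0.426). All 4 that fell passed without any single library. The list holds genes that earlier results of these data had already shown as lower, CDH17 among them, so it is not independent evidence of a direction.

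**Figure D3:**
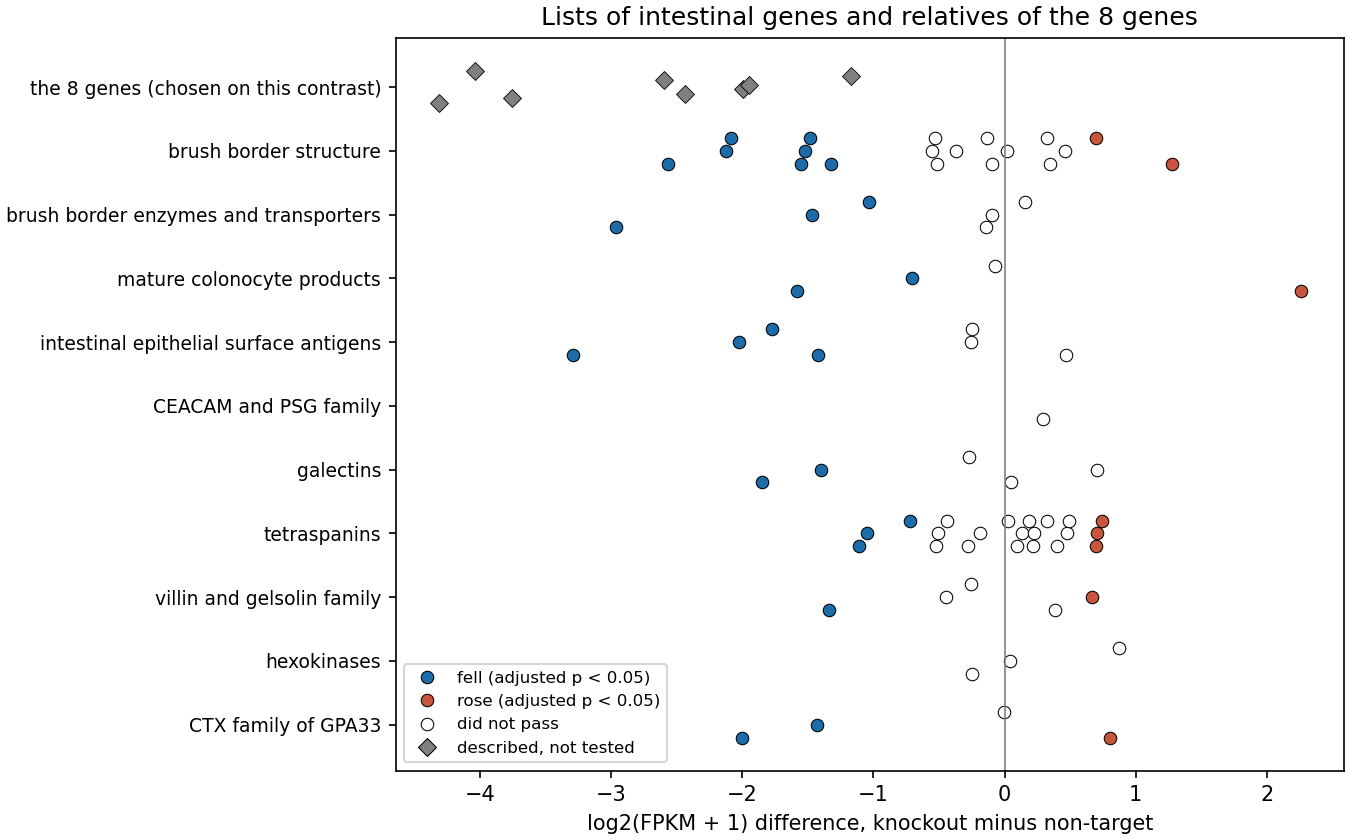
Difference in mean log2(FPKM + 1), knockout minus non-target, with 1 point per tested gene. Grey diamonds are the 8 genes, shown without a test; filled circles passed the threshold (blue lower, red higher) and open circles did not. The intestinal lists in the upper rows have more blue than red points, 7 and 2 for brush-border structure, while tetraspanins have 3 of each.

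Relatives of the 8 genes by family changed in both directions, and most did not pass. In all, 39 relatives could be tested; 8 fell, 5 rose and 26 did not pass. The share that fell was 20.5%, against 5.93% of all tested genes, and 6.26% of all tested genes rose. Their median log2 difference was 0.05 against 0.02 over all tested genes. With scaling to TPM 7 fell and 1 rose. With a mean of at least 5 FPKM 1 fell and 3 rose. Without non-target replicate 1, 3 fell and 5 rose, and without non-target replicate 2 or 3, 4 fell and 0 rose in each case. Without knockout replicate 2, 5 fell and 1 rose, and without knockout replicate 3, 5 fell and 2 rose.

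Galectins gave 2 that fell and 3 that did not pass. LGALS9, a galectin with a pair of sugar-binding domains like galectin-4, went from 6.48 ± 1.59 to 1.05 ± 0.249 FPKM (SD, n = 3; limma, adjusted p = 0.000442). LGALS1 stood at 6.64, 2.02 and 1.98 FPKM in non-target and at 1.23, 0.207 and 0.386 FPKM in knockout (adjusted p = 0.0367). Without replicate 1 of non-target, or replicate 2 or 3 of knockout, LGALS1 did not pass (adjusted p up to 0.156), nor with no filter on low genes (0.101). LGALS3, the most abundant galectin here, stood at 178.5 ± 2.65 and 187.4 ± 37.5 FPKM and did not pass (adjusted p = 0.898).

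Tetraspanins other than TSPAN8 gave 3 that fell, 3 that rose and 15 that did not pass, of 21 tested. TSPAN15 and TSPAN11 fell by 1.11 ± 0.21 and 1.05 ± 0.16 on the log2 scale (SE; adjusted p = 0.00792 and 0.00234). On the genes tested with all libraries, both passed without any single library. With the filter set on the libraries kept TSPAN15 still did, but TSPAN11 was too low to test when a non-target library was left out. TSPAN7 fell by 0.72 and CD81 rose by 0.74; TSPAN7 did not pass with either scaling (adjusted p = 0.0513 and 0.0533) or without knockout replicate 2 or 3 (up to 0.158), and of the single libraries left out, CD81 passed only without knockout replicate 1 (up to 0.113 without the others). With no filter on low genes neither passed (0.0899 for TSPAN7 and 0.0571 for CD81). TSPAN9 and TSPAN33 also rose (adjusted p = 0.0461 and 0.0481), and are named here because the count is small. Of the tetraspanins, 1 to 3 passed when a library other than knockout replicate 1 was left out and the filter was set on the libraries kept, and 10 passed with a replicate block. The widespread tetraspanins CD9, CD63 and CD151 did not pass. TSPAN8 thus lay outside the range of its tested relatives, whose log2 differences ran from -1.11 to 0.74, though it was chosen for its difference.

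In the villin and gelsolin family, VILL fell and FLII rose among 5 tested. VILL, villin-like, stood at 5.28, 2.26 and 2.27 FPKM in non-target and at 0.883, 0.402 and 0.566 FPKM in knockout (adjusted p = 0.00902). VILL did not pass without knockout replicate 2 or 3 (adjusted p up to 0.0645), and FLII not without non-target replicate 2 or 3 (up to 0.153) or with scaling to TPM (0.0502). GSN, gelsolin, stood at 15.9 ± 4.85 and 20.9 ± 4.45 FPKM (adjusted p = 0.346). Of the hexokinases, HK1, HK2 and ADPGK were tested, and 0 passed, by limma; without non-target replicate 1 and with a replicate block HK1 passed, as given above. HK2 stood at 9.87 ± 0.361 and 10.3 ± 1.99 FPKM (SD, n = 3; adjusted p = 0.906).

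Of the CTX family to which GPA33 belongs, 2 fell, 1 rose and 1 did not pass. CLMP, an adhesion protein of epithelial junctions, went from 4.82 ± 0.593 to 0.449 ± 0.120 FPKM (SD, n = 3; adjusted p = 9.33e-05), and ESAM, an adhesion protein known from endothelium, from 7.09 ± 0.509 to 2.0 ± 0.372 FPKM (adjusted p = 0.00065). CXADR, the coxsackievirus and adenovirus receptor, rose by 0.81 ± 0.20 on the log2 scale (SE; adjusted p = 0.0269), but did not pass without non-target replicate 2 or 3 or knockout replicate 2 (up to 0.149), with scaling to TPM (0.0979) or with no filter (0.0573). Of the CEACAM and PSG family only CEACAM19 was tested; it stood at 4.37 ± 0.522 and 6.02 ± 2.79 FPKM and did not pass (adjusted p = 0.596), though it passed as higher without knockout replicate 1 (0.0299). CEACAM7, a colonocyte gene of the same cluster, stood at 1.23, 0.581 and 0.544 FPKM in non-target and at 0.646, 0.451 and 0.174 FPKM in knockout, and was too low to test. The PSG genes, which placenta expresses, were at most 0.28 FPKM in any library.

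Genes next to the 8 on the chromosome mostly did not pass. Within 500 kb of each gene, counted once for each of the 8, 99 neighbours other than the 8 were tested; 4 fell and 4 rose, or 4.04% that fell against 5.93% of all tested genes. Windows of CEACAM5 and CEACAM6 overlap, so neighbours of that pair were counted in both. The nearest tested neighbours of GPA33, ILDR2 and POU2F1, had log2 differences of -0.16 and -0.01 (adjusted p = 0.638 and 0.988). The nearest tested genes around CEACAM1 (LIPE and LYPD3) and around the CEACAM5 and CEACAM6 pair (DMAC2 and RPS19) did not pass either. Nor did CTDSP1 and USP37 beside VIL1 or SUPV3L1 beside HKDC1, and adjusted p of these genes ran from 0.151 to 0.831. They are nearest among tested genes only: LYPD3 lies 899553 bases from CEACAM1, outside the 500 kb window, and DMAC2 265882 bases from CEACAM5. A replicate block, whose p-values rest mostly on a spread shared across genes, let CTDSP1 pass as lower (adjusted p = 0.000142). CAPN12 and ECH1 are the neighbours of LGALS4: CAPN12 did not pass (adjusted p = 0.268, and 0.0214 as higher with a replicate block), and ECH1 fell by 0.69 (adjusted p = 0.0382) but did not pass without any library except knockout replicate 3 (up to 0.166), or with no filter (0.0653).

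Among the nearest tested neighbours outside the 8, LGR5 had the largest difference. LGR5, a receptor of crypt stem cells, overlaps the annotated span of TSPAN8 on the opposite strand, with 0 shared exonic bases. It stood at 41.7, 54.6 and 55.8 FPKM in non-target and at 13.4, 18.0 and 11.9 FPKM in knockout, a fall of 1.75 ± 0.20 on the log2 scale (SE; limma, adjusted p = 0.000477). PTPRR, on the other side of TSPAN8, did not pass (adjusted p = 0.515).

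Around the CEACAM cluster, 33 tested genes other than CEACAM1, CEACAM5 and CEACAM6 start within 1 Mb of CEACAM5. Of these, 1 fell and 5 rose, against 5.93% of all tested genes that fell and 6.26% that rose. The 5 include both RAB4B and MIA-RAB4B, symbols that share the RAB4B name, so they may not be 5 separate loci. The gene that fell was CYP2B6, a drug-metabolising cytochrome, and it is named here after its value was seen (log2 difference -1.86 ± 0.14, SE). RPS19, a ribosomal protein gene 88209 bases from CEACAM6, stood at 1937 ± 351.6 FPKM in non-target and 2590 ± 771.6 in knockout (SD, n = 3).

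**Figure D4:**
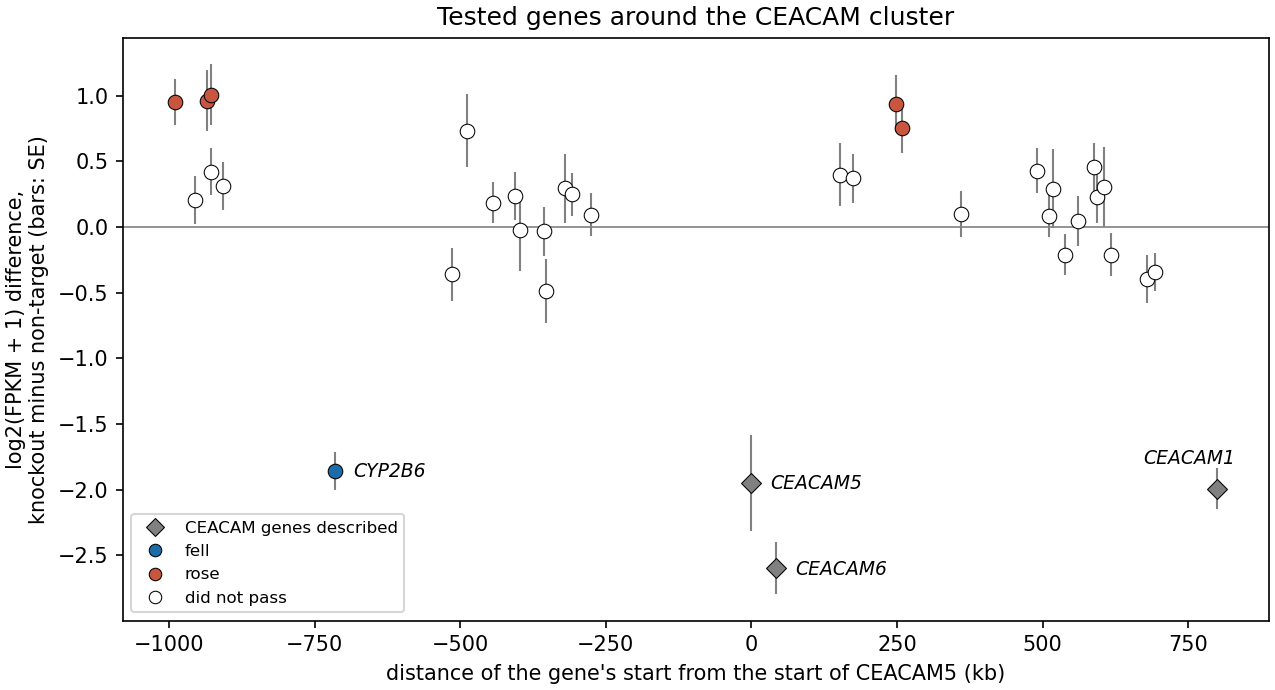
Difference in mean log2(FPKM + 1), knockout minus non-target, of tested genes by distance of their start from that of CEACAM5, with bars for the SE. The 3 CEACAM genes lie near -2 or below. Of the 33 other genes, 1 (CYP2B6) is past the threshold as lower and 5 as higher.

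The 6 genes whose profile over the 6 libraries lay closest to the median of the 8 were VIM, PIP5K1B, SEMA4B, CYP3A5, MYO1A and IL33, among 8035 genes with at least 5 FPKM in non-target. Closeness is the root mean square difference in log2(FPKM + 1) after the non-target mean is taken off, and it ran from 0.117 for VIM to 0.165 for IL33. Of the 8 themselves, CEACAM6 and TSPAN8 lay closest to their common median, at 0.162 and 0.167, and GPA33 farthest, at 1.25. VIM, vimentin of the mesenchymal cytoskeleton, stood at 234.1, 212 and 221.9 FPKM in non-target and at 55.1, 28.0 and 34.1 FPKM in knockout. SEMA4B, a semaphorin, went from 50.8 ± 4.77 to 8.05 ± 1.38 FPKM, and IL33, a cytokine of barrier tissues, from 7.21 ± 0.154 to 0.657 ± 0.432 FPKM (SD, n = 3). CYP3A5, an intestinal and hepatic drug-metabolising cytochrome, went from 8.75 ± 0.42 to 0.864 ± 0.360 FPKM and PIP5K1B, a phosphoinositide kinase, from 9.61 ± 1.82 to 0.912 ± 0.701 FPKM. These genes were picked for their likeness to a group that is low in knockout, so their difference is part of the choice, and only MYO1A also stands in a list of intestinal genes used here.

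Of the 8 genes, the CEACAM genes shared the most transcript sequence with other genes read in the same direction. Overlaps on the opposite strand were not part of that search, such as the 3045 of 6891 exonic bases that VIL1 shares with USP37. Of the 50-base stretches of the longest annotated transcript, 8.25% in CEACAM6, 6.26% in CEACAM5 and 4.18% in CEACAM1 also occur in transcripts of other genes, against 1.47% in LGALS4 and 0 in GPA33, TSPAN8, VIL1 and HKDC1. How the authors assigned such fragments is not given, so the split among the CEACAM genes is uncertain to that extent. CEACAM1 also shares 185 exonic bases with LIPE-AS1 on the opposite strand, which stood at 0.139 to 1.01 FPKM.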

How the data were processed

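Poly-A RNA of 6 LoVo samples went into strand-marking (dUTP) libraries, per the labels' protocols. The deposited values are FPKM, which the authors computed with STAR 2.7.10b after aligning trimmed reads to hg19 with TopHat2 2.1.1, per the submitters' design text. The labels do not say how that step used strand or multi-mapping fragments. Symbols missing from a library were set to 0. Of 22496 symbols, 89.0% matched GENCODE on GRCh37, the same build as hg19. RefSeq sequences are in GRCh38.p14 coordinates.

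Genes other than the 8 were tested on log2(FPKM + 1), computed here from the deposited FPKM, with limma 3.58.1 (R 4.3.3; trend and robust options on). That scale understates the change of low genes. A gene was tested where 3 of the 6 libraries or more reached 1 FPKM. Tests were two-sided, with Benjamini-Hochberg adjustment over all 13092 genes and a threshold of 0.05. The script was tested on simulated data. All 8 genes passed the filter, which they could do through the non-target group alone. Depth was read from the step on which low values of genes with 1 transcript gather. Between 63 and 85 of 669 to 777 such values per library lay within 2% of 1 or 2 steps, so it is an estimate.

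The 8 genes and all lists were chosen with earlier results of these data known. Named were the 8 genes, up to 4 genes per list that changed most among those past the threshold (with 0 past it, the gene of smallest p), the nearest tested neighbours and the 6 closest profiles. Other genes are named where stated. Not every gene that meets this rule is reported here.

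Both groups carry replicate numbers 1 to 3. Deviations from group means correlated at 0.547, 0.309 and 0.331 between same-numbered libraries, each above 0.1. The labels do not say that the numbers mark pairs. The reported fit used genotype only, and the numbers served as pairs only in the replicate block, an alternative. These correlations do not separate replicate 2 from replicate 3: the crossed pair of non-target 2 and knockout 3 gave 0.320, against 0.309 for the pair numbered 2. Non-target replicates 2 and 3 were nearly alike, and were counted as 1 sample in an alternative. Further alternatives were other pseudocounts (0.5, 0.1), testing all genes or those with a mean of 5 FPKM, TPM and median-ratio scaling, no trend, a replicate block, and each library left out in turn.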

Additional observations from a re-analysis of the deposited data

How the results depend on the processing

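All 8 genes stayed lower in knockout under every pseudocount, scaling and left-out library tried, and their median log2 difference ran from -2.80 (pseudocount 0.1) to -2.41. Of all tested genes, 1597 passed the threshold. Without filter 1773 passed, of which 39.9% rose against 51.3% in the reported fit, and with scaling to TPM 41.0% rose. A mean of at least 5 FPKM gave 865 (60.0% rose), a replicate block 3309, and single left-out libraries 648 to 1869, the lowest without non-target replicate 2 (679) or 3. On the genes tested with all libraries, an alternative added with the data in view, the range was 911 to 1970, with 958 without non-target replicate 2, and 944 with non-target replicates 2 and 3 counted as 1 sample. Brush-border structure genes past the threshold numbered 9, and 7 to 12 under the alternatives. Relatives numbered 13, but 4 with a mean of at least 5 FPKM, 8 with scaling to TPM, 4 to 14 without single libraries, 6 to 14 on the genes tested with all libraries, and 7 with non-target replicates 2 and 3 counted as 1 sample. Without filter, 5 enzyme and transporter genes fell in place of 3. Without filter 6 named genes no longer passed: CD81 (adjusted p = 0.0571), CXADR (0.0573), KRT20 (0.0651), ECH1 (0.0653), TSPAN7 (0.0899) and LGALS1 (0.101). The replicate block gave 19 relatives and, of the named genes, changed the call of CAPN12, CTDSP1 and HK1 only. It leaves 2 residual degrees of freedom, so its p-values rest mostly on a spread shared across genes. The causes of these shifts were not tested, apart from the smaller number of genes under a stricter filter. VIL1, CEACAM1 and HKDC1 lay below 1 FPKM in every knockout library, where the pseudocount sets the size of the log2 difference.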
